A study of Mus musculus with 10 samples.

Results

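The 44 genes described here encode proteins of the complement and coagulation systems that the liver secretes into plasma, together with the C1q chains and properdin, which leukocytes make. They were chosen by gene name from a liver expression table of 54532 genes, and all 44 passed the filter on low reads that left 13306 genes for testing. Liver RNA had been sequenced in bulk from 10 mice on a C57BL/6J background that were fed a high-fat diet (HFD) for 7 weeks from 6 weeks of age and fasted for 5 h before sampling. All 10 mice belong to a line with a murine ASK1 cDNA in the ROSA26 locus behind a stop cassette flanked by lox sites. In the 5 ASK1+hep mice, Cre under the albumin promoter removed the stop cassette in hepatocytes, and the 5 ASK1f/f control littermates carried the construct without Cre. ASK1, encoded by Map3k5, is a kinase of the cellular stress response. Because Cre and ASK1 overexpression occurred in the same animals, their contributions cannot be told apart. The libraries bear different animal tags, so that each stands for a separate mouse. The comparison asks whether ASK1 overexpression in hepatocytes is accompanied by a different level of these transcripts.

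Complement is a cascade of plasma proteases and their substrates that marks surfaces for uptake and lyses cells. The classical pathway starts when C1q binds antibody on a surface and the proteases C1r and C1s cleave C4 and C2, and the lectin pathway does the same with mannose-binding lectins and the MASP proteases. Both lead to cleavage of C3, which the alternative pathway with factor B amplifies, and then of C5, after which C6, C8 and C9 join the pore of the membrane attack complex. Coagulation is a second protease cascade, in which vitamin K-dependent factors activate each other on phospholipid until thrombin, cleaved from prothrombin, turns fibrinogen into fibrin. Protein C, protein S and serpins hold the cascade back, and plasmin dissolves the clot. Hepatocytes are the main source of most of these proteins, whereas C1q comes largely from macrophages, which in the liver are the Kupffer cells.

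The start sites of 34 of the 44 genes were matched by symbol to RefSeq promoter sequences (build GRCm38.p6), each running from 250 bases before to 50 bases after the start. Both strands were searched for the letters of motifs of liver and inflammation factors. The HNF1 half-site GTTAAT stood in 10 of the 34 promoters (29.4%, against 8.24% of 27025 genes), and the C/EBP motif TTGCNNAA in 11 (32.4%, against 12.2%). The STAT motif TTCNNNGAA stood in 6 (17.6%, against 9.55%), the AP-1 motif TGANTCA in 3 (8.82%, against 8.97%) and the HNF4 motif CAAAGTCCA in 0 (against 0.555%). No match of a motif overlapped a match of another in these promoters, and 11 of the 34 held none. The 250 bases upstream of the start are shown for C8b and Proz with an HNF1 half-site and for C9 and C3 with a C/EBP motif. They are also shown for the macrophage gene C1qb, which held none of the motifs. All of these genes, C1qb included, were lower in ASK1+hep livers. The motifs also stood in genes with log2 fold changes above 0, among them Vtn (HNF1 half-site) and Klkb1 and Serpinc1 (C/EBP). Whether the motifs relate to the differences in expression was not tested. Each sequence is written 5′ to 3′ on the strand of its gene, with the motif in capitals. The C8b sequence lies at chr4:104766067-104766316 on the plus strand, Proz at chr8:13060658-13060907 on the plus strand, C9 at chr15:6445096-6445345 on the plus strand, C3 at chr17:57228137-57228386 on the minus strand and C1qb at chr4:136886201-136886450 on the minus strand.
C8b: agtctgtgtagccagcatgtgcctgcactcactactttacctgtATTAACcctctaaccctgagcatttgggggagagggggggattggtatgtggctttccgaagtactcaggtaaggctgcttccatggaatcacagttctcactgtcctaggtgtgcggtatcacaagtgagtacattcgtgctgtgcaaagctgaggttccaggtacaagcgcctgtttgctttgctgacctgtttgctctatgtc
Proz: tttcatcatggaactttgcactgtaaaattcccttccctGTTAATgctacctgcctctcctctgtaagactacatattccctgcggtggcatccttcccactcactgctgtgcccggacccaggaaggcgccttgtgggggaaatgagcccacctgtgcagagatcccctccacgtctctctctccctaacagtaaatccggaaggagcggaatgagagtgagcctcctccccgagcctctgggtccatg
C9: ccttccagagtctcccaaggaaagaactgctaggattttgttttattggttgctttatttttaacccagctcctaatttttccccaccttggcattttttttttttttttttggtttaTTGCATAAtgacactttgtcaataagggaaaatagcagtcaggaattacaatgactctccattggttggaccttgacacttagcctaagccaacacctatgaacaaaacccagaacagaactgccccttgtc
C3: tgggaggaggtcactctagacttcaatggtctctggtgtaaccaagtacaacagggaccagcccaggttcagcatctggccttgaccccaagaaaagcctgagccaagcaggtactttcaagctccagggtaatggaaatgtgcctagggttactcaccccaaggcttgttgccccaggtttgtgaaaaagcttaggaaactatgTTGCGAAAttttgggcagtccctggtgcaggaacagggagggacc
C1qb: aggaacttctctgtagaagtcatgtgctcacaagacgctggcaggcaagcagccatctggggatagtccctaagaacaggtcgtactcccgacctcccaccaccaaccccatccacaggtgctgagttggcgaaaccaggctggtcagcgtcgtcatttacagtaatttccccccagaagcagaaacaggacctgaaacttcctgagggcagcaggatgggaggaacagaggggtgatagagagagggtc
The first base of the motif lay 206 bases before the start of C8b, 211 before that of Proz, 132 before that of C9 and 45 before that of C3. A match is a run of letters in the reference and was not examined for binding.

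Expression is given as FPKM, fragments per kilobase of gene length and per library size, as the authors deposited it. Between 13367742 and 16163378 reads per library fell on genes, and the 44 genes took 1.88% to 3.06% of them. Hepatocyte markers were abundant in every library, with Alb at 14692 to 25083 FPKM, and the summed FPKM of 10 macrophage markers ranged from 83.7 to 207. Sex was not in the labels, and all 10 libraries held the Y-linked Ddx3y at 6.02 to 16.8 FPKM and Xist at no more than 0.0129 FPKM. By label, ASK1f/f 1 to 5 had 6.74, 6.88, 5.77, 4.71 and 19.8 FPKM of Map3k5, the targeted gene, and ASK1+hep 1 to 5 had 16.4, 11.1, 7.68, 12.4 and 15.2 FPKM. The library labelled ASK1f/f 5 thus held the most Map3k5 of the 10, against its label, and results that rest on it are given with and without it. Another library, ASK1+hep 3, stood apart from the rest. Its mitochondrial genes took 10.9% of reads against 4.19% to 6.74% in the other 9 libraries, and the standard deviation of its log2 deviations over 5199 genes was 0.585 against 0.231 to 0.356. In ASK1f/f 2 and the library labelled ASK1f/f 5, the acute phase gene Saa1 was at 1557 and 904 FPKM against 14.8 to 116 FPKM in the other 8.

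Transcripts of the complement and coagulation system were, for the most part, somewhat lower in ASK1+hep livers, and none of the differences passed the adjusted threshold. Of the 44 genes, 35 were lower and 9 higher in ASK1+hep, at a median log2 fold change of -0.21, whereas 52.0% of all 13306 genes were lower, with a median of -0.0065. Differences in a bulk sample do not distinguish fewer cells of a type from less RNA per cell. At an unadjusted p under 0.05 in limma, 9 of the 44 genes (20.5%) were lower in ASK1+hep, against 2.72% of all genes, and 0 were higher, against 3.05%. These 9 were C8b, C4b, Proz, C9, Cfi, Cpb2, Plg, C3 and F2, all of them made by hepatocytes. After Benjamini-Hochberg adjustment over all genes, 0 of the 44 and 0% of the 13306 had an adjusted p at or below 0.05 in limma, and the lowest adjusted p of the 44 was 0.804. Without ASK1+hep 3, 38 of the 44 were lower, 7 of them at an unadjusted p under 0.05 in limma. At such a p, 2.19% of all genes were lower in that setting, and the shares that follow are likewise of genes lower in ASK1+hep. But the median log2 fold change of the 44 was -0.14 without ASK1+hep 3. For 15 of the 44 the log2 fold change was more than 1.5 times smaller, and 9 changed sign. Without the library labelled ASK1f/f 5, 33 were lower, 6 of them at such a p (against 2.79%), with a median of -0.20. Without the livers with high Saa1, 29 were lower, 3 of them at such a p (against 2.61%), with a median of -0.16. Without those livers and ASK1+hep 3 as well, 34 were lower, 6 of them at such a p (against 3.12%), with a median of -0.10. With each liver corrected for gene length, 38 were lower, 10 of them at such a p (against 2.83%). Scaled to all reads on genes in place of the composition factor in the FPKM, 40 of the 44 were lower, the median of all genes shifted to -0.052 and that of the 44 to -0.29. Other lists also had negative medians, with 4 of 5 endothelial markers lower (median -0.18), 4 of 5 stellate cell markers lower (-0.19) and 11 of 11 acute phase genes lower (-0.73). Without the livers with high Saa1, log2 fold changes of the acute phase genes ran from -0.41 (Itih4) to 0.52 (Orm2). Saa1, Saa2, Saa3, Orm2, Hp, Hpx and Apcs were then above 0, and Orm1, Lcn2, Itih4 and Crp below. Of 9 hepatocyte markers 6 were lower at a median of -0.036, and their log2 fold changes spanned -0.72 to 0.52. The part of these markers in the values of the 44 genes was not tested.

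**Figure D1:**
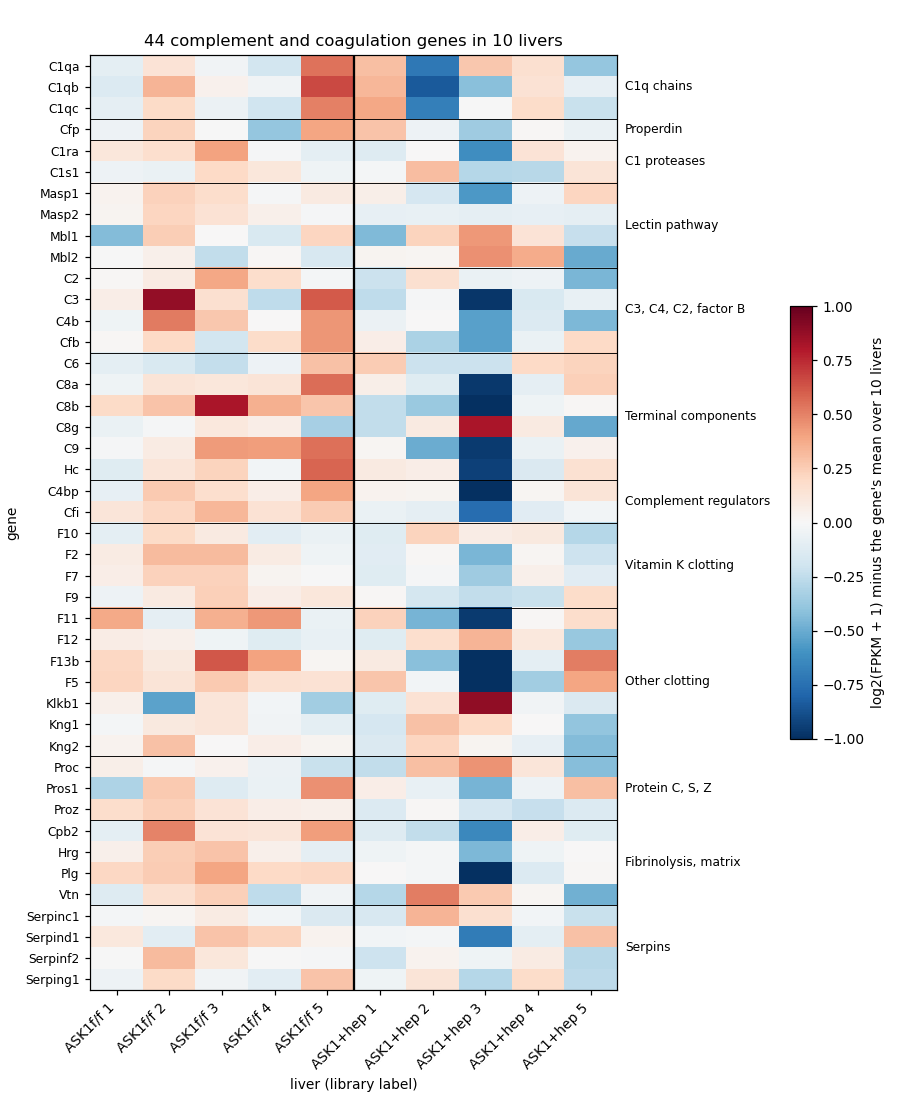
Each row is 1 of the 44 genes, grouped by role, and each column 1 of the 10 livers, with the vertical line between ASK1f/f and ASK1+hep. Color gives log2(FPKM + 1) minus the mean of that gene over the 10 livers, with values beyond 1 in either direction drawn in the end color. ASK1+hep 3 was the lowest of the 10 livers for 22 of the 36 hepatocyte-made factors, while Klkb1 and C8g were highest there.

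**Figure D2:**
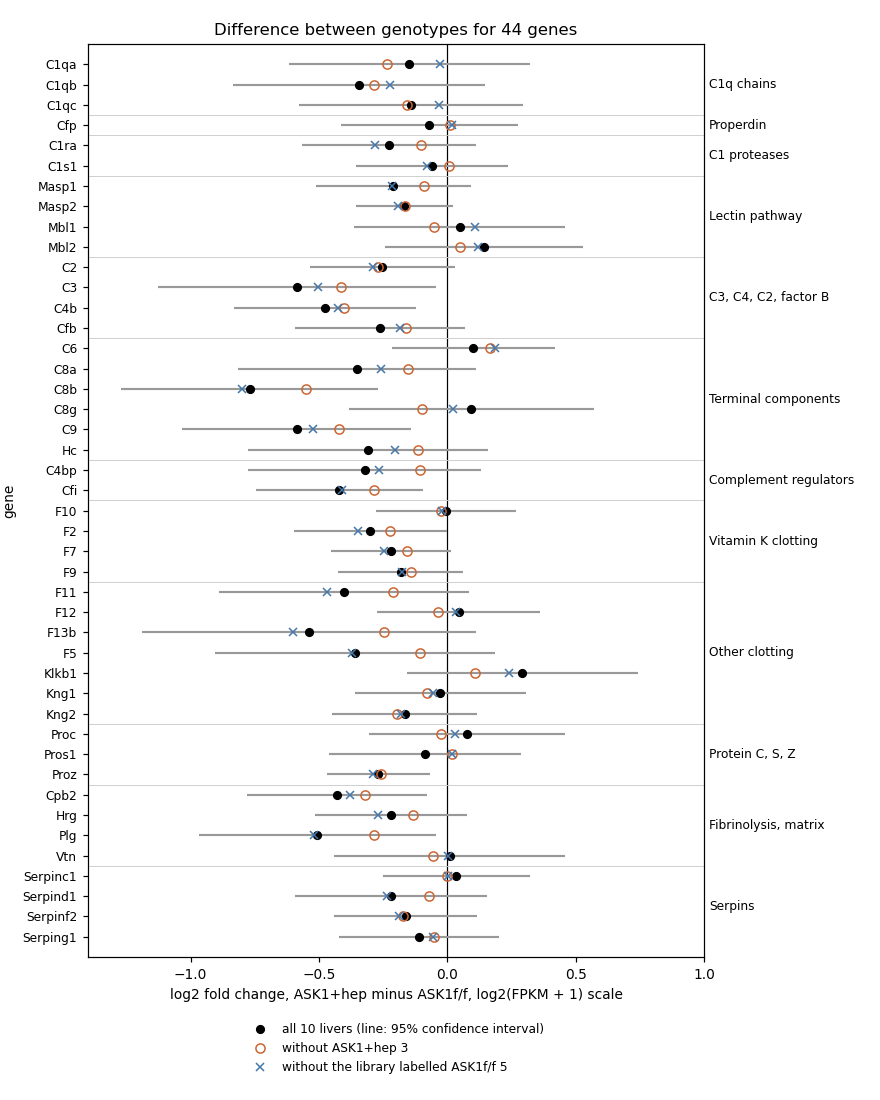
For each of the 44 genes, the filled point gives the log2 fold change (ASK1+hep minus ASK1f/f, on the log2(FPKM + 1) scale) over all 10 livers and the line its 95% confidence interval from limma. Open circles give the value without ASK1+hep 3 and crosses that without the library labelled ASK1f/f 5, and 35 of the 44 filled points lie below 0.

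In 5 of the 44 genes, every ASK1+hep liver was below every ASK1f/f liver, which was so for 0.466% of all genes. These were C8b, Cfi, Plg, Proz and Masp2. Full separation of 5 and 5 livers fixes the exact two-sided permutation p at its smallest value, 0.00794. For these genes that p therefore only restates the separation by which they were picked. Without the library labelled ASK1f/f 5, the groups separated for 7 of the 44 (against 1.32% of all genes), with F2 and Hrg in addition. No gene of the 44 had every ASK1+hep liver above every ASK1f/f liver. The share of all genes in that direction was not counted, so the directions cannot be compared on this measure.

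Averaged over the 10 livers, vitronectin (Vtn, chromosome 11, 78499091 to 78502324, plus strand), an adhesive plasma protein that also restrains the membrane attack complex, was the most abundant at 1082 FPKM. C3, the central substrate of all complement pathways, followed at 724 FPKM, then high-molecular-weight kininogen (Kng1, chromosome 16, 23057865 to 23082078, plus strand) at 531, plasminogen (Plg) at 395 and histidine-rich glycoprotein (Hrg, chromosome 16, 22951072 to 22961656, plus strand) at 370.0 FPKM. Factor B (Cfb) was the lowest at 1.16 FPKM. FPKM of Cfb has a limit of annotation, since 79.5% of its exon bases are shared with Gm20547, a gene on the same strand, and reads that fit both genes may not have been counted. The same holds in part for C2 (46.9% of exon bases shared), Klkb1 (43.2%), Masp2 (54.9%, with Tardbp on the opposite strand) and Serpinc1 (34.4%, opposite strand), and 9 of the 44 genes share any exon bases. C4b, C1ra, C1s1, Kng1 and Kng2 have near-identical copies, so that reads may be split between copies.

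The 4 genes of the C3 and C4 convertases and their parts, C2, C3, C4b and Cfb, were all lower in ASK1+hep (median log2 fold change -0.37). C3 (chromosome 17, 57203970 to 57228136, minus strand) was at 717, 1260.2, 768, 574 and 1049 FPKM in ASK1f/f 1 to 5 and at 576, 681, 348, 617 and 650.0 FPKM in ASK1+hep 1 to 5. The highest C3 values were those of ASK1f/f 2 and the library labelled ASK1f/f 5, the livers with high Saa1, the lowest was that of ASK1+hep 3, and the groups overlapped. Mean C3 was 873 ± 277 FPKM for the ASK1f/f livers and 574 ± 132 FPKM for the ASK1+hep livers (± SD, n = 5 each), 34.2% lower (log2 fold change -0.59, SE 0.25, adjusted p = 0.812 in limma). Without the livers with high Saa1 the log2 fold change of C3 was -0.28, and without these and ASK1+hep 3 it was -0.11. C4b (chromosome 17, 34728380 to 34743882, minus strand), the complement C4 gene, was at 271, 400.1, 337, 280.4 and 379.8 FPKM in ASK1f/f 1 to 5 and at 267, 279, 191, 254 and 204 FPKM in ASK1+hep 1 to 5. As for C3, the highest 2 values were those of the livers with high Saa1, and ASK1+hep 2 lay just below ASK1f/f 4. C4b was 28.3% lower in ASK1+hep (log2 fold change -0.48, SE 0.16, exact two-sided permutation p = 0.0159, adjusted p = 0.812 in limma), and its log2 fold change was -0.32 without the livers with high Saa1 and -0.24 without these and ASK1+hep 3. C2, the protease that joins C4b, had a log2 fold change of -0.25 (SE 0.13) and Cfb, the protease of the alternative pathway, of -0.26 (SE 0.15). The summed FPKM of 11 acute phase genes outside the 44 was 16415 and 16565 in ASK1f/f 2 and the library labelled ASK1f/f 5 and 4977 to 8074 in the other 8 livers, and its part in the C3 and C4b differences was not tested.

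Upstream of the convertases, differences were small. The C1 proteases C1ra and C1s1 had log2 fold changes of -0.23 (SE 0.15) and -0.060 (SE 0.14), and that of C1ra was -0.10 without ASK1+hep 3. Of the lectin pathway, Masp2 (chromosome 4, 148602554 to 148615499, plus strand), the protease that cleaves C4 and C2, was at 46.1, 52.8, 50.2, 47.1 and 44.9 FPKM in ASK1f/f 1 to 5 and at 42.9, 43.01, 42.6, 42.8 and 42.5 FPKM in ASK1+hep 1 to 5. Masp2 thus hardly varied among ASK1+hep livers, all of which were below the lowest ASK1f/f value, that of the library labelled ASK1f/f 5. The difference was 11.3% (log2 fold change -0.17, SE 0.086, exact two-sided permutation p = 0.00794, the smallest possible). In limma, the unadjusted p of Masp2 was 0.0768 and the adjusted p 0.812. Masp1, which activates Masp2, had a log2 fold change of -0.21 (SE 0.14), or -0.092 without ASK1+hep 3. The mannose-binding lectins, which recognise sugars on microbes, had log2 fold changes above 0 with all livers. Mbl2 (chromosome 19, 30232928 to 30239685, plus strand) was at 253, 263, 214, 255 and 227 FPKM in ASK1f/f 1 to 5 and at 259, 257, 348, 328 and 178 FPKM in ASK1+hep 1 to 5. The ASK1+hep values of Mbl2 held both the highest and the lowest of the 10, so the groups overlapped fully (log2 fold change 0.14, SE 0.18, exact two-sided permutation p = 0.429), and the log2 fold change was 0.047 without ASK1+hep 3. Mbl1 had a log2 fold change of 0.049 (SE 0.19), which was -0.053 without ASK1+hep 3.

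Among the 6 terminal components, C8b and C9 were lower in ASK1+hep, and the genes of the 3 chains of C8 differed from each other. C8b (chromosome 4, 104766317 to 104804548, plus strand), encoding the beta chain, was at 121, 129, 188, 136 and 128 FPKM in ASK1f/f 1 to 5 and at 88.9, 81.5, 43.3, 103 and 107 FPKM in ASK1+hep 1 to 5. Every ASK1+hep liver was below every ASK1f/f liver, with ASK1+hep 3 lowest and ASK1f/f 3 highest. Mean C8b was 140.4 ± 26.9 FPKM for the ASK1f/f livers and 84.6 ± 25.3 FPKM for the ASK1+hep livers (± SD, n = 5 each), 39.7% lower (log2 fold change -0.77, SE 0.23, exact two-sided permutation p = 0.00794, adjusted p = 0.804 in limma). C8b had the lowest p of the 44 genes and rank 97 of 13306. The log2 fold change of C8b was -0.55 without ASK1+hep 3, -0.80 without the library labelled ASK1f/f 5 and -0.62 without ASK1+hep 3 and the livers with high Saa1, and in all 20 alternatives its unadjusted p was under 0.05. C8a, encoding the alpha chain, lies 11131 bases from C8b on the opposite strand and had a log2 fold change of -0.35 (SE 0.21), or -0.15 without ASK1+hep 3. C8g (chromosome 2, 25498651 to 25501719, minus strand), encoding the gamma chain from another chromosome, was at 277, 288, 313, 305 and 230.1 FPKM in ASK1f/f 1 to 5 and at 244, 309, 511, 309 and 203 FPKM in ASK1+hep 1 to 5. ASK1+hep 3 had the highest C8g of the 10 livers and the lowest C8a and C8b. The log2 fold change of C8g was 0.093 (SE 0.22) with all livers and -0.10 without ASK1+hep 3.

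C9 (chromosome 15, 6445327 to 6498751, plus strand), the subunit that forms the wall of the pore, was at 158, 169, 215, 214 and 235 FPKM in ASK1f/f 1 to 5 and at 162, 113, 81.7, 152 and 164 FPKM in ASK1+hep 1 to 5. ASK1+hep 1 and 5 lay within the ASK1f/f range, just above ASK1f/f 1, and the other 3 lay below it. C9 was 32.1% lower in ASK1+hep (log2 fold change -0.59, SE 0.20, exact two-sided permutation p = 0.0238, adjusted p = 0.812 in limma), and the unadjusted p was under 0.05 in all 20 alternatives. C6 (chromosome 15, 4727175 to 4814967, plus strand), which joins the complex early, was at 97.9, 94.3, 88.7, 101 and 129 FPKM in ASK1f/f 1 to 5 and at 126, 90.3, 90.6, 121 and 123 FPKM in ASK1+hep 1 to 5, higher in ASK1+hep by a log2 fold change of 0.10 (SE 0.15, exact two-sided permutation p = 0.508). The highest C6 value was that of the library labelled ASK1f/f 5, without which the log2 fold change was 0.19, or 0.17 without ASK1+hep 3, and the groups overlapped. Hc, the mouse name of the C5 gene, had a log2 fold change of -0.31 (SE 0.21), or -0.11 without ASK1+hep 3.

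The complement regulators Cfi and C4bp were both lower. Cfi (chromosome 3, 129835884 to 129875332, plus strand) encodes factor I, the protease that degrades C3b and C4b, and was at 199, 211, 229.6, 202 and 218 FPKM in ASK1f/f 1 to 5 and at 175, 172, 108, 169 and 179 FPKM in ASK1+hep 1 to 5. The groups did not overlap, and 4 of the ASK1+hep livers lay within 169 to 179 FPKM while ASK1+hep 3 was far below them. The mean was 212 ± 12.4 FPKM for the ASK1f/f livers and 160.4 ± 29.8 FPKM for the ASK1+hep livers (± SD, n = 5 each), 24.3% lower (log2 fold change -0.42, SE 0.15, exact two-sided permutation p = 0.00794, adjusted p = 0.812 in limma), and the log2 fold change was -0.28 without ASK1+hep 3. C4bp, a cofactor of factor I, had a log2 fold change of -0.32 (SE 0.21) that was -0.11 without ASK1+hep 3, the liver with the lowest C4bp.

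**Figure D3:**
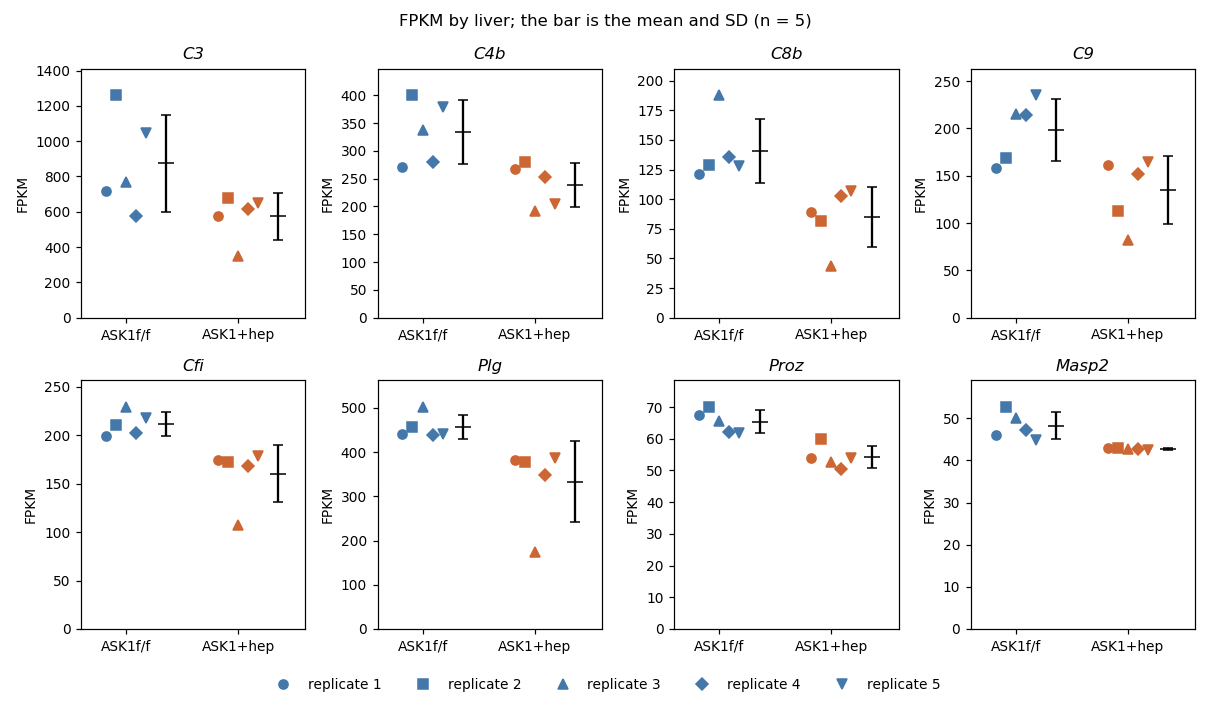
FPKM of 8 genes in each liver, with ASK1f/f in blue, ASK1+hep in orange, the marker shape giving the replicate number and the bar the mean and SD (n = 5). In C8b, Cfi, Plg, Proz and Masp2 all ASK1+hep livers lie below all ASK1f/f livers, while C3, C4b and C9 overlap, and ASK1+hep 3 is the lowest point in C3, C4b, C8b, C9, Cfi and Plg.

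Of the 4 vitamin K-dependent clotting factors, all had a negative log2 fold change, and that of F10 was -0.0045. F2 (chromosome 2, 91625320 to 91636414, minus strand), the prothrombin gene, was at 353, 413, 415, 351 and 322 FPKM in ASK1f/f 1 to 5 and at 307, 334, 242, 337 and 288 FPKM in ASK1+hep 1 to 5. The ASK1f/f range overlapped that of ASK1+hep only through the library labelled ASK1f/f 5. F2 was 18.7% lower (log2 fold change -0.30, SE 0.14, exact two-sided permutation p = 0.0238, adjusted p = 0.812 in limma). F7, which starts coagulation with tissue factor, had a log2 fold change of -0.22 (SE 0.11) and F9, deficient in hemophilia B, of -0.18 (SE 0.11).

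Of the other 7 clotting genes, 5 were lower and 2 higher, and 0 had an unadjusted p under 0.05 in limma. F13b, the carrier subunit of the fibrin-crosslinking factor XIII, had the widest difference of these with a log2 fold change of -0.54 (SE 0.30), but it was -0.25 without ASK1+hep 3. F11 had a log2 fold change of -0.40 (SE 0.22) and F5, the cofactor of factor Xa, of -0.36 (SE 0.25), which were -0.21 and -0.11 without that liver. Klkb1 (chromosome 8, 45266689 to 45294859, minus strand), the plasma prekallikrein gene that neighbours F11, was at 47.6, 31.3, 49.98, 44.9 and 35.8 FPKM in ASK1f/f 1 to 5 and at 42.1, 50.7, 85.5, 44.6 and 41.3 FPKM in ASK1+hep 1 to 5. It had the most positive log2 fold change of the 44 genes, 0.29 (SE 0.21, exact two-sided permutation p = 0.262), which rested on ASK1+hep 3 and was 0.11 without it. Kng1, the source of high-molecular-weight kininogen and bradykinin, was at 520.4, 564, 572, 513 and 492 FPKM in ASK1f/f 1 to 5 and at 468, 646, 604, 527 and 399.9 FPKM in ASK1+hep 1 to 5, with ASK1+hep livers both above and below the ASK1f/f range (log2 fold change -0.028, SE 0.15). Kng2 had a log2 fold change of -0.17 (SE 0.13) and F12, the contact factor, of 0.045 (SE 0.15).

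Of the vitamin K-dependent anticoagulants, Proz was lower and Proc and Pros1 overlapped between groups. Proz (chromosome 8, 13060914 to 13076026, plus strand) encodes protein Z, a cofactor for the inhibition of factor Xa, and was at 67.4, 70.2, 65.6, 62.2 and 61.8 FPKM in ASK1f/f 1 to 5 and at 53.9, 59.9, 52.7, 50.5 and 53.9 FPKM in ASK1+hep 1 to 5. All ASK1+hep livers were below all ASK1f/f livers, and ASK1+hep 3 did not stand out among them. Proz was 17.2% lower (log2 fold change -0.27, SE 0.092, exact two-sided permutation p = 0.00794, adjusted p = 0.812 in limma), with -0.26 without ASK1+hep 3, -0.29 without the library labelled ASK1f/f 5 and -0.25 without ASK1+hep 3 and the livers with high Saa1. Proc, the protein C gene on chromosome 18, was at 377, 359, 372, 348 and 310.3 FPKM in ASK1f/f 1 to 5 and at 304, 446, 493, 393 and 269 FPKM in ASK1+hep 1 to 5 (log2 fold change 0.076, SE 0.17, exact two-sided permutation p = 0.659). The ASK1+hep values of Proc spread wider than those of ASK1f/f on both sides. Pros1, the protein S gene, had a log2 fold change of -0.087 (SE 0.17), which was 0.017 without the library labelled ASK1f/f 5.

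In the fibrinolytic and matrix group, Plg and Cpb2 were lower. Plg (chromosome 17, 12378608 to 12419385, plus strand) encodes plasminogen, the precursor of plasmin, and was at 440.5, 456, 503, 439 and 441 FPKM in ASK1f/f 1 to 5 and at 383, 377, 174, 348 and 386 FPKM in ASK1+hep 1 to 5. The groups did not overlap, and ASK1+hep 3 was at 174 FPKM while the other ASK1+hep livers were at 348 to 386 FPKM. Mean Plg was 456 ± 27.3 FPKM for the ASK1f/f livers and 334 ± 90.6 FPKM for the ASK1+hep livers (± SD, n = 5 each), 26.9% lower (log2 fold change -0.51, SE 0.21, exact two-sided permutation p = 0.00794, adjusted p = 0.812 in limma), and the log2 fold change was -0.29 without ASK1+hep 3. Cpb2, encoding a carboxypeptidase that slows fibrinolysis, was 25.7% lower (log2 fold change -0.43, SE 0.16, exact two-sided permutation p = 0.0159, adjusted p = 0.812 in limma), but -0.16 on the log2 scale without the livers with high Saa1 and ASK1+hep 3. Hrg was at 380.4, 436, 448, 381 and 344 FPKM in ASK1f/f 1 to 5 and at 357, 362, 268, 355 and 369 FPKM in ASK1+hep 1 to 5 (log2 fold change -0.22, SE 0.14). For Hrg, the library labelled ASK1f/f 5 lay below 4 of the ASK1+hep livers and ASK1+hep 3 below all others. Vtn was at 971, 1183, 1255, 888 and 1036 FPKM in ASK1f/f 1 to 5 and at 870.0, 1510.5, 1273, 1076 and 759 FPKM in ASK1+hep 1 to 5, with a log2 fold change of 0.0088 (SE 0.21). ASK1+hep 2 had the highest and ASK1+hep 5 the lowest Vtn of the 10.

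The 4 protease inhibitors of the serpin family differed little between genotypes. Their median log2 fold change was -0.14, against -0.22 for the 36 hepatocyte-made factors and -0.0065 for all genes tested, and 0 of the 4 had an unadjusted p under 0.05 in limma. The serpin median was -0.063 without ASK1+hep 3, -0.087 without ASK1+hep 5 and -0.091 without ASK1f/f 2, and that of the factors was -0.14 without ASK1+hep 3. Serpinc1 (chromosome 1, 160978585 to 161005863, plus strand) encodes antithrombin, which inhibits thrombin and factor Xa, and was at 218, 224, 234, 217 and 199 FPKM in ASK1f/f 1 to 5 and at 197, 279, 246, 217 and 189 FPKM in ASK1+hep 1 to 5. Its log2 fold change was 0.035 (95% confidence interval -0.25 to 0.32), and the ASK1+hep values enclosed those of ASK1f/f. Serpind1 (chromosome 16, 17331371 to 17343575, plus strand), encoding heparin cofactor II, was at 186, 161, 211, 203 and 178 FPKM in ASK1f/f 1 to 5 and at 169.6, 171, 106, 162 and 212 FPKM in ASK1+hep 1 to 5. ASK1+hep 3 was the lowest and ASK1+hep 5 the highest (log2 fold change -0.22, 95% confidence interval -0.59 to 0.16, and -0.072 without ASK1+hep 3). Serpinf2 (chromosome 11, 75431732 to 75439591, minus strand), encoding the plasmin inhibitor alpha 2-antiplasmin, was at 337, 422, 366, 337 and 335 FPKM in ASK1f/f 1 to 5 and at 292, 347, 329, 358 and 279 FPKM in ASK1+hep 1 to 5. The highest value was that of ASK1f/f 2 and the 2 lowest were ASK1+hep 1 and 5 (log2 fold change -0.16, 95% confidence interval -0.44 to 0.11). Serping1 (chromosome 2, 84765387 to 84775444, minus strand), encoding the C1 inhibitor that blocks C1r, C1s and plasma kallikrein, was at 327, 386, 329.9, 314 and 412 FPKM in ASK1f/f 1 to 5 and at 329, 369.9, 277, 384 and 283 FPKM in ASK1+hep 1 to 5. The highest Serping1 values were those of the library labelled ASK1f/f 5 and ASK1f/f 2, with ASK1+hep 4 next (log2 fold change -0.11, 95% confidence interval -0.42 to 0.20). Without the library labelled ASK1f/f 5, the log2 fold change of Serping1 was -0.054. All 4 intervals include 0, and the difference between inhibitors and factors was not tested.

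The 3 chains of C1q varied more among livers of 1 genotype than between genotypes. Their genes lie side by side on the minus strand of chromosome 4, C1qb from 136880129 to 136886187, C1qc from 136889804 to 136893065 and C1qa from 136895917 to 136898803. C1qa was at 44.3, 52.3, 46.2, 41.7 and 69.7 FPKM in ASK1f/f 1 to 5 and at 58.7, 28.5, 57.4, 53.00 and 36.02 FPKM in ASK1+hep 1 to 5. C1qb was at 37.2, 52.00, 42.1, 39.9 and 65.4 FPKM in ASK1f/f 1 to 5 and at 51.9, 22.4, 30.5, 45.3 and 38.7 FPKM in ASK1+hep 1 to 5, and C1qc at 20.1, 24.6, 20.5, 18.5 and 30.9 and 28.2, 12.9, 21.3, 24.4 and 18.2 FPKM. In all 3 chains the library labelled ASK1f/f 5 was highest and ASK1+hep 2 lowest. Log2 fold changes were -0.15 (SE 0.21, exact two-sided permutation p = 0.571) for C1qa, -0.35 (SE 0.22, p = 0.222 in the same exact test) for C1qb and -0.14 (SE 0.20, p = 0.556 in the same exact test) for C1qc. Their median of -0.15 was -0.031 without the library labelled ASK1f/f 5, 0.012 without ASK1+hep 2 and 0.031 without the livers with high Saa1, so its direction rested on single livers. Properdin (Cfp), a stabiliser of the alternative convertase that leukocytes make, had a log2 fold change of -0.071 (SE 0.16). For Cfp it was 0.020 without the library labelled ASK1f/f 5.

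By liver, the C1q chains did not move with the hepatocyte-made factors. The mean log2 deviation of the 36 hepatocyte-made factors was 0.015, 0.17, 0.19, 0.061 and 0.12 in ASK1f/f 1 to 5 and -0.062, -0.015, -0.37, -0.030 and -0.070 in ASK1+hep 1 to 5. Every ASK1f/f liver was thus above every ASK1+hep liver on this mean, but narrowly, with ASK1f/f 1 at 0.015 and ASK1+hep 2 at -0.015. The mean includes the genes named above as lower, and ASK1+hep 3 lay far below the other 4 ASK1+hep livers. The C1q chains deviated by -0.11, 0.22, -0.020, -0.14 and 0.57 in ASK1f/f 1 to 5 and by 0.34, -0.75, -0.050, 0.16 and -0.23 in ASK1+hep 1 to 5. Values of C1q were highest in the library labelled ASK1f/f 5 and ASK1+hep 1 and lowest in ASK1+hep 2, whereas the hepatocyte-made factors were highest in ASK1f/f 3 and lowest in ASK1+hep 3. Over the same livers the 10 macrophage markers deviated by 0.11, -0.019, -0.029, -0.075 and 0.53 and by 0.50, -0.62, -0.46, 0.019 and 0.051, with all 10 tested, 10 lower in ASK1+hep at a median log2 fold change of -0.18, 0 with an unadjusted p under 0.05 in limma and none listed at 0 throughout. These markers, like C1q, were highest in the library labelled ASK1f/f 5 and ASK1+hep 1 and lowest in ASK1+hep 2. Other livers differed: C1q was at 0.22 in ASK1f/f 2 and 0.16 in ASK1+hep 4, with the markers at -0.019 and 0.019. In ASK1+hep 3 the markers were at -0.46 and C1q at -0.050. The part of the markers in the C1q values was not tested. The serpins deviated by 0.0070, 0.11, 0.11, 0.021 and 0.040 in ASK1f/f 1 to 5 and by -0.11, 0.12, -0.22, 0.036 and -0.12 in ASK1+hep 1 to 5. ASK1+hep 2 was highest for the serpins, and ASK1+hep 3 was lowest, as it was for the hepatocyte-made factors.

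**Figure D4:**
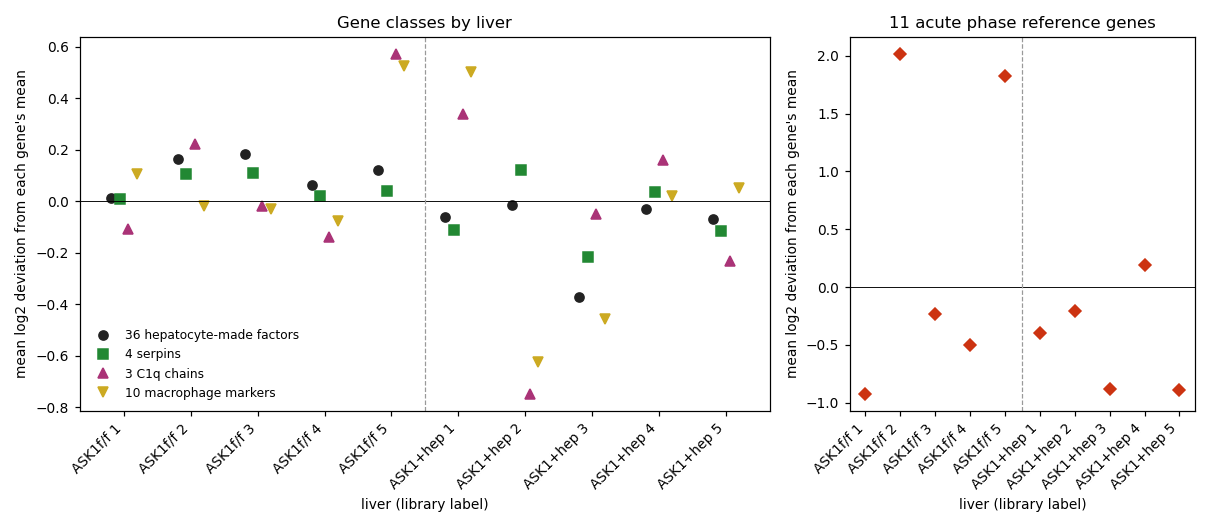
The left panel gives, for each liver, the mean log2 deviation (from the mean of each gene over 10 livers) of the hepatocyte-made factors, serpins, C1q chains and macrophage markers, and the right panel that of 11 acute phase genes on its own scale. Hepatocyte-made factors range from -0.37 in ASK1+hep 3 to 0.19 in ASK1f/f 3, C1q chains and macrophage markers spread wider, and acute phase genes are high in ASK1f/f 2 and the library labelled ASK1f/f 5.

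Several of the 44 genes are neighbours in the genome, and 13 pairs lie within 100 kb of each other. Pairs farther apart were not correlated, so whether neighbours varied more alike than other pairs was not tested. Over the 10 livers, C1qc and C1qa varied most alike (Pearson r = 0.951, permutation p = 1e-05, the smallest that 100000 permutations can give, adjusted p = 0.00013 over the 13 pairs, Spearman rho = 0.952, permutation p = 0.0001). Without the 2 livers farthest from the median, the library labelled ASK1f/f 5 and ASK1+hep 2, r was 0.846. For C1qb and C1qc, r was 0.906 (permutation p = 0.0005, adjusted p = 0.00325, rho = 0.830, permutation p = 0.00451) and 0.678 without those livers. For C1qb and C1qa, r was 0.771 (permutation p = 0.00974, adjusted p = 0.0317, rho = 0.661, permutation p = 0.0430), but 0.247 without those livers, so that the relation of this pair rested on them. Kng2 and Kng1, divergent neighbours, had r = 0.823 (permutation p = 0.00566, adjusted p = 0.0245, rho = 0.515, permutation p = 0.132). As both have near-identical copies, reads split between copies may enter this r. C8b and C8a had r = 0.805 (permutation p = 0.0176, adjusted p = 0.0382, rho = 0.673, permutation p = 0.0391), but 0.371 without ASK1+hep 3, so that their relation rested on that liver. F7 and Proz had r = 0.725 (permutation p = 0.0144, adjusted p = 0.0375, rho = 0.733, permutation p = 0.0191), 0.594 without the 2 livers farthest from the median and 0.383 after centering each genotype. For F10, which lies between F7 and Proz, and Proz the values were lower (r = 0.230, permutation p = 0.518, adjusted p = 0.613, rho = 0.127, permutation p = 0.734). F11 and Klkb1, 4658 bases apart, had r = -0.579 (permutation p = 0.0975, adjusted p = 0.181, rho = -0.067, permutation p = 0.865), and without ASK1+hep 2 and ASK1+hep 3 r was 0.810. Among the 8 livers of the larger animal tag series, r was 0.951 for C1qc and C1qa, 0.902 for C1qb and C1qc, 0.750 for C1qb and C1qa, 0.814 for Kng2 and Kng1, 0.834 for C8b and C8a, 0.717 for F7 and Proz, 0.286 for F10 and Proz and -0.62 for F11 and Klkb1, and the other series held 1 liver of each genotype.

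Of 46 further complement and coagulation genes that are not among the 44, 35 passed the filter. Of these, 29 were lower and 6 higher in ASK1+hep (median log2 fold change -0.16), and 0 had an adjusted p at or below 0.05 in limma. At an unadjusted p under 0.05, 2 of the 35 were lower (against 2.72% of all genes) and 2 higher (against 3.05%). Among them, and named after their values were seen, were C4a, the near-identical copy of C4b (log2 fold change -0.68, SE 0.30), on the lower side, and Cd59a, a membrane inhibitor of the pore (0.51, SE 0.19), and Vkorc1, the vitamin K reductase (0.69, SE 0.31), on the higher side. In C4a the livers with high Saa1 held the highest values, and without them its log2 fold change was -0.35. Cd59a and Vkorc1 were highest in ASK1+hep 3, with Vkorc1 at 70.4 FPKM there against 13.2 to 27.7 FPKM in the other 9 livers, and without that liver their log2 fold changes were 0.35 and 0.36.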

How the data were processed

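Poly-A RNA from liver was sequenced on Illumina instruments, and per the paper's methods reads were trimmed (fastp in the submitters' processing notes), mapped with Hisat2 and counted with FeatureCounts. The authors deposited FPKM per gene, with gene position and length, for 54532 genes. Build and annotation are not given in the sources used here. Of the gene identifiers, 54495 are in GENCODE M21 (GRCm38), 98.3% of these at the same position, and 42 of the 44 genes have the same position and length there. Library protocols are described as directional and non-directional, so whether counting used strand is unknown, and a gene cannot be told apart from an antisense partner.

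Dividing FPKM times gene length by the value of 1 read gave whole reads, within 0.01, for 100% of values (13367742 to 16163378 per library, or 18 to 102059 for a single gene of the 44). The 13306 genes kept had 10 or more reads (after scaling to the median library) in 5 or more livers and 15 or more in sum. Log2(FPKM + 1) was compared between 5 ASK1+hep and 5 ASK1f/f livers with limma 3.58.1 in R 4.3.3, with a mean-variance trend, no covariate and Benjamini-Hochberg adjustment over all 13306 genes. Fold changes on this scale understate those of genes with low FPKM. Single genes were also compared with an exact two-sided permutation test over all 252 assignments of 5 and 5 livers, whose smallest p is 0.00794. Correlations used 100000 permutations (numpy 2.4.6, pandas 2.3.3, scipy 1.17.1, matplotlib 3.10.9 for plots). Tested on simulated data, the limma fit recovered 97.5% of 200 genes that had been altered by 2 on the log2 scale, and 7.58% of its calls were false. Every gene of the 44 differed by less than that, so this says nothing of detection at their sizes.

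The 44 genes, their roles and the lists of markers and pathway genes were chosen with earlier results of these data known. Named with values in every liver were the C1q chains, the serpins, the 5 genes with the highest mean FPKM, up to 5 higher and 5 lower with the lowest p in limma, and all whose genotypes did not overlap (23 genes). F2, Cpb2 and genes given only by a log2 fold change are named beyond this rule. The values of 1 further pathway gene are not reported here. No p was adjusted over the 44 alone and no set test was run. Alternatives were no filter, a pseudocount of 0.1, limma-voom on the recovered reads without and with quality weights, the replicate number as a block, the animal tag series as a covariate, scaling to all reads, leaving out each liver, and, added after seeing the data, leaving out ASK1f/f 2 and 5 or these and ASK1+hep 3, and a correction of each liver for gene length.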

Additional observations from a re-analysis of the deposited data

Results flagged for a closer look

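A liver was singled out where its gap to the nearest liver of its genotype, divided by the range of the genotype on the log2(FPKM + 1) scale, was above 0.71. Of 88 groups of 5 livers examined, 10 were above it, and 7 of the 10 concerned ASK1+hep 3. Chance gives about 1 in 20 for a single group. These groups are different genes in the same livers, so the count cannot be compared with that rate. The share over all genes was not counted. That liver was lowest for C3 at 347.9 FPKM (gap ratio 0.751), Hc at 64.1 FPKM (0.727), Cfi at 108 FPKM (0.882), C4bp at 37.5 FPKM (0.903), Plg at 174 FPKM (0.871) and Hrg at 268 FPKM (0.886), and highest for Klkb1 at 85.5 FPKM (0.717). Among ASK1f/f livers, ASK1f/f 3 was highest for C8b at 188 FPKM (gap ratio 0.737) and for Plg at 503 FPKM (0.717), and ASK1f/f 2 for Kng2 at 102 FPKM (0.785).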

How the results depend on the processing

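Of the 44 genes, 27 kept their direction in all 20 alternatives, and in none did a gene of the 44 reach an adjusted p at or below 0.05 in limma (lowest 0.383). The replicate block and the animal tag series hold equal numbers of each genotype per level, so neither could alter a direction. The number of genes with such an adjusted p was 1 with limma-voom and quality weights, 0 to 1 when a liver was left out (1 without ASK1+hep 5) and 2 without ASK1f/f 2 and 5 and ASK1+hep 3. Genes with an unadjusted p under 0.05 numbered 768, 1222 without a filter and 557 to 1724 when a liver was left out (highest without ASK1+hep 5, then 1178 without ASK1+hep 1). Of the 44, 9 had such a p, 5 to 11 when a liver was left out (lowest without ASK1f/f 2) and 3 without ASK1f/f 2 and 5. Those higher in ASK1+hep numbered 9, 4 with scaling to all reads, 6 to 11 when a liver was left out (lowest without ASK1+hep 3) and 15 without ASK1f/f 2 and 5. The medians of hepatocyte-made factors, C1q chains and serpins moved by less than the spread between livers in every alternative, although that of C1q crossed 0 without ASK1+hep 2 and without ASK1f/f 2 and 5. Same-numbered livers are different animals, and the labels name no pairs, but for numbers 1 to 4 the animal tags of the 2 genotypes are adjacent. The correlations of their deviations were 0.0738, 0.174, 0.0212, 0.171 and 0.0932, of which 2 were above 0.1. The main fit and the permutation tests did not pair the livers, and whether same-numbered livers belong together was not tested. As a hint from the data, the mean correlation was 0.107 for same numbers against -0.027 for different numbers. Of 5 ASK1f/f livers, 4 correlated best with the ASK1+hep liver of their own number. With the replicate number as a block, 8 of the 44 and 880 genes had an unadjusted p under 0.05 in limma. Each number holds 1 liver of each genotype, so this block cannot alter a log2 fold change.

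Genes whose direction turned without ASK1f/f 2 and 5 were C1qa 0.031, C1qc 0.047, Cfp 0.11, F10 0.036, Pros1 0.12 and Serping1 0.0095. Without these and ASK1+hep 3 they were C1qc 0.031, Cfp 0.19, Hc 0.016, C8g -0.18, C4bp 0.0020, F10 0.017, F12 -0.027, Klkb1 -0.089, Proc -0.078, Pros1 0.23, Vtn -0.012, Serping1 0.067 and Serpinc1 -0.030. With limma-voom and quality weights they were Cfp 0.11, C8g -0.018, F10 0.040, Pros1 0.021 and Serping1 0.022. With scaling to all reads they were Mbl1 -0.030, F12 -0.035, Proc -0.0033, Vtn -0.071 and Serpinc1 -0.044, and with the length correction Mbl1 -0.025, F12 -0.0089 and Vtn -0.042. When a liver was left out, values ranged from -0.24 to 0.012 for C1qa, from -0.25 to 0.013 for C1qc, from -0.18 to 0.020 for Cfp, from -0.14 to 0.0049 for C1s1, from -0.053 to 0.16 for Mbl1, from -0.099 to 0.23 for C8g, from -0.060 to 0.065 for F10, from -0.035 to 0.15 for F12, from -0.10 to 0.068 for Kng1, from -0.026 to 0.19 for Proc, from -0.17 to 0.019 for Pros1, from -0.12 to 0.13 for Vtn and from -0.045 to 0.094 for Serpinc1. The cause was not tested. Cfb, with 18 to 82 reads, was the gene of the 44 with the fewest reads behind its value.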

Other observations

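Deviations from the gene mean correlated with gene length across 5199 genes with Spearman coefficients from -0.41 in ASK1+hep 3 and -0.40 in ASK1+hep 4 to 0.37 in ASK1+hep 5. Gene length accounted for 10.3% of the squared deviations in ASK1+hep 3, 8.82% in ASK1+hep 5 and 6.79% in ASK1+hep 4. It accounted for 4.88% in ASK1+hep 1, 3.32% in ASK1+hep 2 and 0.496% to 3.86% in the ASK1f/f libraries, so the genotypes overlapped. Genes are not independent replicates, and these values describe libraries.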
